A study of Mus musculus with 2 samples.

Results

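The miR-15/16 family and its relatives miR-103 and miR-107 were compared between KPC-exosomes and MPDC-exosomes through 7 mature miRNAs, chosen by name: mmu-miR-15a-5p, mmu-miR-15b-5p, mmu-miR-16-5p, mmu-miR-195a-5p, mmu-miR-497a-5p, mmu-miR-103-3p and mmu-miR-107-3p. They are 7 of the 1881 mouse miRNAs on the array. No measured value entered the rule that chose them, but earlier results of these data were known when it was set. KPC-exosomes came from supernatants of a murine pancreatic cancer line grown out of tumours of KrasLSL-G12D/+, Trp53LSL-R172H/+, Pdx1-Cre mice, in which Cre recombinase driven by the Pdx1 promoter switches on both mutant alleles in pancreatic cells. MPDC-exosomes, the negative control, came from a purchased murine line of pancreatic ductal epithelial cells. The KPC line was maintained in RPMI-1640 with 20% fetal bovine serum and the MPDC line in DMEM with 10%, and exosome-free serum was used before collection, so medium and cell line cannot be told apart. Exosomes, the small vesicles that cells release, were pelleted by ultracentrifugation in both cases, and their RNA was labelled with the dye Cy3. There was 1 array per group, each from 1 cell line, so no difference below has a replicate check and no test was made. By the sample records, 0.5 µg of RNA was labelled in both groups. With equal input a signal reflects the share of a miRNA in that RNA, and its amount per vesicle was not measured.

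A miRNA guides the silencing machinery to messenger RNAs that pair with its seed, the bases near its 5′ end. The miR-15/16 family is known for repressing genes that drive the cell cycle and genes that protect cells from death, and miR-103 and miR-107 are known for lowering insulin sensitivity in liver and fat. The study asked how exosomes of pancreatic cancer cells bear on the response of muscle cells to insulin.

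The mature sequences are given because all 7 seeds are built from the same run of bases, shifted by 1 position between the families. They are those of RefSeq, whose table matched all 7 members, and capitals mark bases 2 to 8, the seed. The last 2 sequences are not members and are shown as relatives outside the set that both arrays detected.
mmu-miR-15a-5p: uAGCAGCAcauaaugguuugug
mmu-miR-15b-5p: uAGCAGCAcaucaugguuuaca
mmu-miR-16-5p: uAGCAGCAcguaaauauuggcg
mmu-miR-195a-5p: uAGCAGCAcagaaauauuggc
mmu-miR-497a-5p: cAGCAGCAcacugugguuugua
mmu-miR-103-3p: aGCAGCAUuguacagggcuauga
mmu-miR-107-3p: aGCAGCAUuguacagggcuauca
mmu-miR-322-5p: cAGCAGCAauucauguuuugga
mmu-miR-503-5p: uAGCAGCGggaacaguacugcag

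The 5 members of the miR-15/16 family shared the seed AGCAGCA. miR-103-3p and miR-107-3p shared the seed GCAGCAU, and no other miRNA of the array with a RefSeq sequence had it. Their first 7 bases read AGCAGCA, the seed of the other family placed 1 base earlier. Counted from 1 at the 5′ end, miR-103-3p and miR-107-3p differed by the single substitution G22C. From miR-16-5p to miR-195a-5p there were 2 substitutions, G10A and U11G, over the 21 positions that both have.

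In the RefSeq annotation of GRCm38.p6 the 7 members come from 9 loci. Mir15a (chr14:61632075-61632096, minus strand) and Mir16-1 (chr14:61631936-61631957, minus strand) lie within the long noncoding gene Dleu2, with 139 bases between the starts of their mature sequences. Mir15b (chr3:69009775-69009796, plus strand) and Mir16-2 (chr3:69009918-69009939, plus strand) lie 143 bases apart within Smc4, a protein-coding gene. Mir497 (chr11:70234730-70234751, plus strand) and Mir195a (chr11:70235062-70235082, plus strand) form the third pair, 332 bases apart, and no protein-coding or long noncoding gene of the table spans them. Mir103-1 (chr11:35782447-35782469, plus strand), Mir103-2 (chr2:131288103-131288125, plus strand) and Mir107 (chr19:34820700-34820722, minus strand) lie within Pank3, Pank2 and Pank1, which encode pantothenate kinases. The annotation used gives gene bounds without exons, so intron and exon were not assigned. The 2 loci of miR-16-5p give the same mature sequence, as do the 2 of miR-103-3p, and the array cannot split their signals.

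All 7 members were detected on both arrays, and the signal of each was lower in KPC-exosomes. Detected means that the total signal of a probe exceeded 3 times the error given to it by the scanner software, and the signal of a miRNA is the sum over its detected probes in arbitrary units, given here with its scanner error. That error covers the measurement on these arrays and not the spread between exosome preparations. Differences are log2 of KPC-exosomes minus log2 of MPDC-exosomes.

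Within the miR-15/16 family, miR-15a-5p gave 696 ± 49.3 in KPC-exosomes against 5729.8 ± 406 in MPDC-exosomes, which before normalization made a difference of -3.04 ± 0.15. Its cluster partner miR-16-5p gave 1058 ± 85.1 and 8572 ± 686, a difference of -3.02 ± 0.16. For miR-15b-5p, transcribed with the other copy of miR-16, the signals were 2668 ± 213 and 20475 ± 1628 (-2.94 ± 0.16). These 3 miRNAs were thus at least 7.68-fold and at most 8.24-fold lower in KPC-exosomes.

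miR-195a-5p and miR-497a-5p, neighbours on chromosome 11 that carry the same seed, stood much further apart between the arrays. The signal of miR-195a-5p was 61.6 ± 5.30 in KPC-exosomes against 1869.7 ± 151 in MPDC-exosomes (-4.92 ± 0.17, or 30.3-fold lower). miR-497a-5p measured 35.8 ± 3.18 against 943 ± 77.7 (-4.72 ± 0.17, or 26.3-fold lower).

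The 2 members with the shifted seed lay beside miR-15 and miR-16. miR-103-3p had a signal of 715 ± 61.5 in KPC-exosomes and 5249 ± 451 in MPDC-exosomes (-2.88 ± 0.17, or 7.34-fold lower). For miR-107-3p the signals were 328 ± 26.8 and 2569.9 ± 207 (-2.97 ± 0.16, or 7.83-fold lower).

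**Figure D1:**
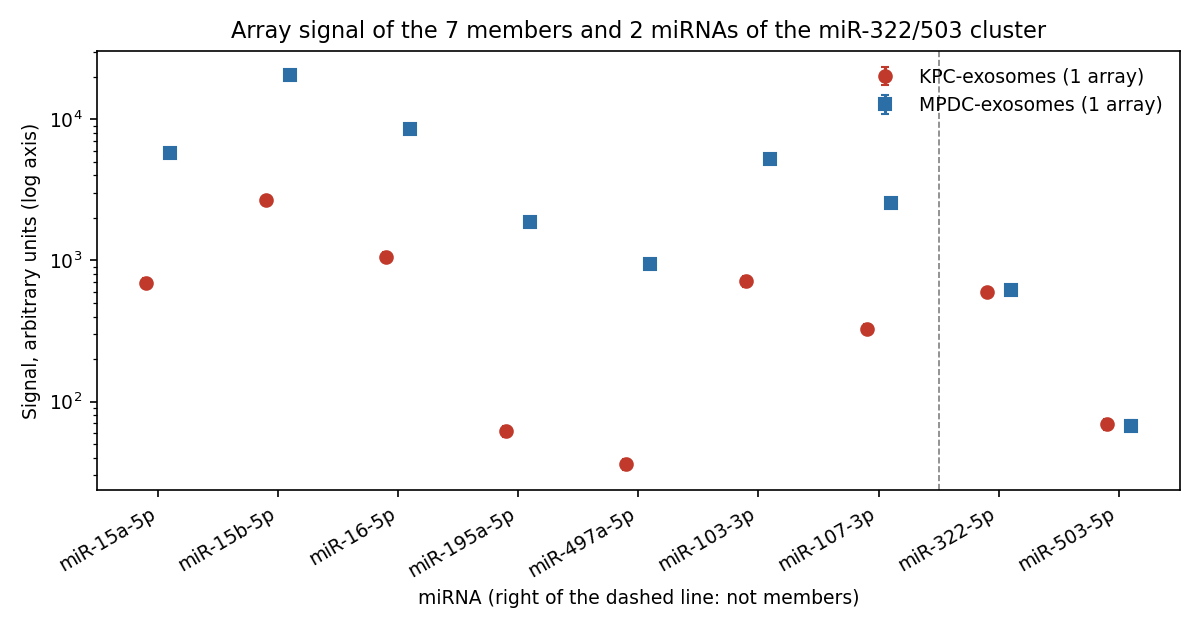
Signal (arbitrary units, log axis) of each member on the array of KPC-exosomes (circles) and of MPDC-exosomes (squares), with miR-322-5p and miR-503-5p to the right of the dashed line. Bars are scanner errors, mostly smaller than the symbols, and only the 2 symbols of 1 miRNA can be compared, since probes differ in brightness. Every member was lower in KPC-exosomes, from 715 against 5249 for miR-103-3p to 61.6 against 1869.7 for miR-195a-5p, while miR-322-5p was at 596 and 615.

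The unnormalized differences of the members formed 2 groups. Between -3.04 and -2.88 lay 5 members, 3 of one family and both of the other, although they come from 7 loci on 5 chromosomes. Among them, 10 pairs could be formed, the largest gap was 0.17 and none was above 2 scanner errors of the gap. miR-195a-5p and miR-497a-5p differed from each other by 0.20, or 0.84 scanner errors. Each of the 10 pairs made of one of these 2 and one of the 5 had a gap of 1.68 to 2.05, or 7.10 to 8.42 scanner errors. Members with the same seed stood on both sides of this division, with miR-16-5p 8.10-fold lower and miR-195a-5p 30.3-fold lower.

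Each member was read by 2 probes that differed in length by 1 base, and all 14 probes were detected on both arrays. The differences of the 2 probes of a member lay between 0.0058 and 0.27 of each other, and over all 14 probes they ran from -5.13 to -2.87. For miR-195a-5p the shorter probe gave 11.8 against 414 (-5.13) and the longer one 49.9 against 1456 (-4.87). For miR-497a-5p they gave 8.01 against 191 (-4.58) and 27.8 against 752 (-4.76). With either probe the pair stood apart from the other 5 members.

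The 10 probes of those 5 members ran from -3.06 to -2.87 in their differences, with a scanner error of 0.20 or 0.21 each. miR-15a-5p gave 328 against 2657 with its shorter probe (-3.02) and 367 against 3073 with its longer one (-3.06). The probes of miR-15b-5p gave 636 against 4994 (-2.97) and 2032 against 15481 (-2.93). For miR-16-5p they gave 243 against 2019.6 (-3.05) and 815 against 6553 (-3.01). A longer probe was brighter on both arrays and gave nearly the same difference.

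The probes of miR-103-3p gave 112 against 819 (-2.87) and 603 against 4430.4 (-2.88). Those of miR-107-3p gave 70.5 against 586 (-3.06) and 258 against 1984 (-2.94). Outside the set, the probes of miR-322-5p stood on either side of 0, at 0.13 (220 against 201) and -0.14 (377 against 414).

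Every probe was printed in 15 spots, which makes 210 spots on each array for the members. All were well above background and none was saturated, and 7 spots in KPC-exosomes and 6 in MPDC-exosomes were left out as outliers flagged by the scanner software. The coefficient of variation over the spots of a probe was 2.04% to 9.97%. For all 14 probes the brightest spot of KPC-exosomes was below the dimmest spot of MPDC-exosomes. The narrowest distance was that of miR-103-3p, whose shorter probe ran from 341 to 449.8 in KPC-exosomes and from 2744 to 3121 in MPDC-exosomes. The shorter probe of miR-195a-5p ran from 34.3 to 48.6 and from 1453 to 1543. Spots of 1 array share the same RNA and are not replicates of the exosomes.

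**Figure D2:**
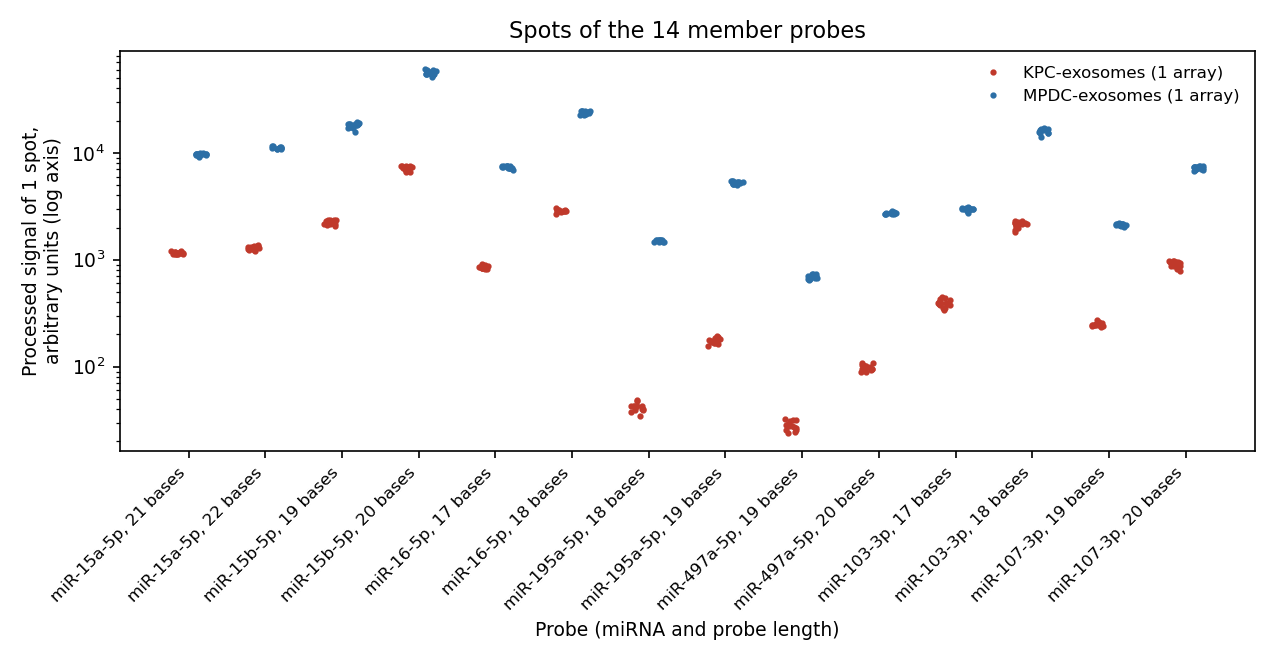
Processed signal of each kept spot (arbitrary units, log axis) for the 14 member probes, named by miRNA and probe length, on the arrays of KPC-exosomes (red) and MPDC-exosomes (blue). The 2 colours do not overlap at any probe, and the distance between them is widest at the 4 probes of miR-195a-5p and miR-497a-5p.

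Every probe of a member pairs up to the last base of its miRNA, but the probes differ in how much of the seed they cover. The probes of miR-15a-5p begin at position 2 or 1 and cover the whole seed. For miR-15b-5p and miR-497a-5p the probes begin at 4 or 3, within the seed. Those for miR-103-3p, of 17 and 18 bases, begin at position 7 or 6 of the miRNA, and those for miR-107-3p begin at 5 or 4, so all 4 cover position 22, where these miRNAs differ. The probes of miR-16-5p begin at position 6 or 5 and those of miR-195a-5p at 4 or 3, so all 4 cover positions 10 and 11. miR-195b has the seed of the miR-15/16 family, differs from miR-195a-5p at 3 of 21 positions and was detected on neither array. How much of the signal of one member reached the probes of a near-identical one was not tested.

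The values above are not normalized, and most miRNAs were lower in KPC-exosomes on that scale. Over the 726 miRNAs detected on both arrays the median difference was -1.37, and 58.8% were at least 2-fold lower, as were all 7 members. The 4 spike-in controls detected on both arrays differed by 0.025 on average, between -0.31 and 0.38. The authors normalized the arrays to one another, and quantile normalization of the scanner signals gave the values they deposited to within 1.11e-05 (log2). With it the median difference of the 726 miRNAs became 0.53, a shift of the whole distribution that changed the size of every difference.

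After quantile normalization all 7 members remained lower in KPC-exosomes and 6 were at least 2-fold lower, where 21.3% of the miRNAs detected on both arrays were. The normalized log2 signals in KPC-exosomes and MPDC-exosomes were 10.10 and 11.60 for miR-15a-5p (-1.51), 10.85 and 12.20 for miR-16-5p (-1.35), 10.14 and 11.49 for miR-103-3p (-1.36), and 9.12 and 10.59 for miR-107-3p (-1.47). These 4 were at least 2.55-fold and at most 2.84-fold lower. With 12.25 and 13.20, miR-15b-5p was at -0.95, or 1.93-fold lower, just short of the 2-fold limit. miR-195a-5p and miR-497a-5p were again the lowest of the members, with 6.79 and 10.22 for the one (-3.43, or 10.8-fold) and 6.12 and 9.12 for the other (-2.99, or 7.97-fold). The median of the members was -1.47 beside the 0.53 of all 726 miRNAs, and without normalization it was -3.02 beside -1.37.

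The normalization did not move the members evenly. It added 1.99 to the difference of miR-15b-5p and up to 1.72 to those of the other 6. Among the 5 members with like differences before normalization, 2 of 10 pairs were then more than 2 scanner errors apart, with a largest gap of 0.56. miR-195a-5p and miR-497a-5p kept a gap of at least 1.49 to each of the 5, or 6.34 scanner errors.

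Counted from the lowest difference among the 726 miRNAs, miR-195a-5p was number 34 and miR-497a-5p number 42 without normalization, and 25 and 39 after it. The other 5 members held places 134 to 151 and then 114 to 160. The members thus lay in the lower part of the distribution on both scales, without reaching its end.

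**Figure D3:**
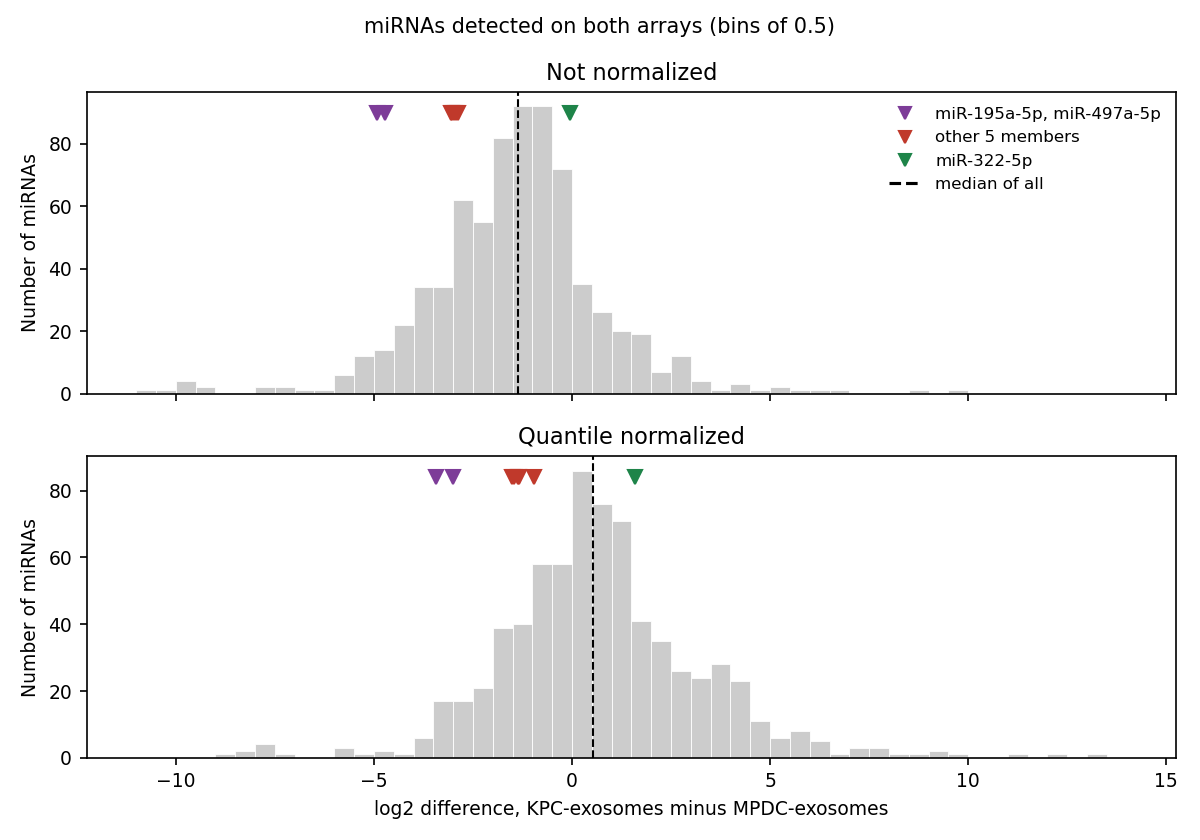
Number of miRNAs by log2 difference (KPC-exosomes minus MPDC-exosomes, bins of 0.5) among the 726 that both arrays detected, without normalization above and quantile normalized below. Triangles mark miR-195a-5p and miR-497a-5p (purple), the other 5 members (red) and miR-322-5p (green), and the dashed line is the median of all, at -1.37 and 0.53. All members lie left of the line and miR-322-5p lies right of it in both panels.

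Of the 10 miRNAs of the array with the seed AGCAGCA, 5 are members and 5 are not. miR-195b, miR-6342, miR-6353 and miR-6419 were detected on neither array. miR-322-5p, the mouse counterpart of human miR-424, was detected on both, at 596 ± 43.6 in KPC-exosomes and 615 ± 46.1 in MPDC-exosomes (-0.045 ± 0.15, and 1.58 after quantile normalization). It had the seed of the miR-15/16 family and yet nearly equal signals on the arrays before normalization. The gap between miR-322-5p and the 5 members with like differences was at least 2.83 without normalization, or 12.2 scanner errors, and at least 2.53 after quantile normalization. Relative to all miRNAs, miR-322-5p was on the other side of the median, 1.33 above it without normalization and 1.05 above it after.

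miR-322-5p is made from Mir322 (chrX:53054306-53054327, minus strand), whose mature sequence starts 279 bases from that of Mir503 (chrX:53054027-53054049, minus strand). miR-503-5p departs from the seed of miR-16-5p by A8G. Its signals were 69.1 ± 6.26 and 67.5 ± 6.14 (0.035 ± 0.19), close to each other like those of miR-322-5p. Of the 13 miRNAs listed for their cluster, which also holds miR-542, miR-450 and miR-351, both arrays detected 9, and 2 more were seen in KPC-exosomes alone. The median of the 9 was -0.045 without normalization and 1.78 after it, 2 of 9 were at least 2-fold lower without normalization and 0 of 9 after it.

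The cluster that runs from miR-17 to miR-92a, known for promoting cell growth, had differences more like those of the members, with none of their seeds. Of its 12 miRNAs listed, both arrays detected 8, and 2 more were seen in MPDC-exosomes alone. The 8 lay between -4.33 and -2.82 without normalization, with a median of -3.60, and all were at least 2-fold lower. After quantile normalization their median was -1.56 and 6 of 8 were at least 2-fold lower. Lower signals in KPC-exosomes were not particular to the 7 members.

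Closest to the median of the members, by the distance of the normalized log2 signals over the 2 arrays, were miR-151-5p, miR-301a-3p, miR-183-5p, miR-19a-3p and miR-18a-5p, at distances of 0.38 to 0.65. With 2 arrays this is likeness in level and difference only. miR-151-5p, for example, gave 519 ± 39.7 and 4326 (scanner error of the difference 0.16), a difference of -3.06 without normalization.

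The opposite arm of a hairpin is usually degraded, and most such arms of the members were not seen. Of 8 opposite arms on the array, miR-15a-3p, miR-16-1-3p, miR-16-2-3p, miR-497a-3p, miR-103-1-5p and miR-107-5p were detected on neither array. miR-195a-3p was detected in MPDC-exosomes only, and there by 1 of its 2 probes. The longer probe gave the whole signal, and the shorter one was at 2.17 ± 1.02, below detection. The hairpin of Mir195a (GRCm38.p6, chr11:70235042-70235135, plus strand) is shown with both arms in capitals, the 5p arm first, because both of its arms were seen in MPDC-exosomes.
Mir195a: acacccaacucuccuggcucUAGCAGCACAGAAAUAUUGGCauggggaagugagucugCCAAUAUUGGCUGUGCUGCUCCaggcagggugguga
The signal of miR-195a-3p in MPDC-exosomes was 24.9 ± 2.70, and the lowest signal of any detected miRNA in KPC-exosomes was 1.41. Set against that signal it was 17.7-fold lower in KPC-exosomes without normalization and 2.94-fold lower after it, the same direction as miR-195a-5p. These folds are not lower bounds. The scanner error of its longer probe in KPC-exosomes was 0.93, and detection required more than 3 times that error. A signal above 1.41 could therefore have gone undetected. miR-15b-3p was detected on both arrays by 1 of its 4 probes, with signals of 1.55 ± 0.46 and 5.29 ± 0.71. Its difference was -1.77 without normalization and 2.73 after it, so its direction turned with the normalization.

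Other miRNAs with known roles in insulin secretion or insulin response did not share one direction. miR-29c-3p was lower in KPC-exosomes like the members, at 246 ± 17.6 against 3728 ± 265 (-3.92 without normalization and -2.24 after). miR-29a-3p, with the same seed family as miR-29c-3p, had near-equal signals of 2832 ± 239 and 2755 ± 234 (0.040 and 1.72). miR-29b-3p was at -0.38 and 1.08, and miR-33-5p at -1.71 and 0.14, so both turned direction with the normalization. miR-143-3p was detected in MPDC-exosomes only, at 16.04 ± 1.82, and miR-802-5p in KPC-exosomes only, at 9.71. miR-375-3p, typical of pancreatic islets, was detected on neither array.

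Cell type markers also differed between the arrays, and so did the arrays in general. Of all 1881 miRNAs, 772 were detected in KPC-exosomes and 1031 in MPDC-exosomes, with summed signals of 429230 and 1.40624e+06. The counts and sums below are not corrected for this. Of 7 epithelial miRNAs (the miR-200 family, miR-203-3p and miR-205-5p), 5 were detected in KPC-exosomes and 7 in MPDC-exosomes, with summed signals of 98.8 and 1781. miR-203-3p and miR-205-5p were the ones not detected in KPC-exosomes. miR-200c-3p, at 4.58 against 991, made up most of the sum in MPDC-exosomes. After quantile normalization the 5 detected on both arrays ran from -5.99 to -0.39, and 3 of 5 were at least 2-fold lower. Of 5 mesenchymal miRNAs, none was detected in KPC-exosomes and all 5 were in MPDC-exosomes (summed signal 226), although the MPDC line is labelled as epithelial. miR-199a-3p, at 156, made up most of that sum, and the others lay between 7.79 (miR-145a-5p) and 27.04 (miR-214-3p). After quantile normalization miR-145a-5p did not exceed the signal it was set against in KPC-exosomes. Of 4 pancreas miRNAs, miR-217-5p alone was detected, in KPC-exosomes only, at 60.9 ± 3.42. Of 6 blood cell miRNAs, 4 were detected in KPC-exosomes and 5 in MPDC-exosomes, with summed signals of 250.4 and 475, and miR-144-3p was at the floor on both. miR-142a-3p alone was higher in KPC-exosomes, at 188 against 29.1 (2.69 without normalization and 4.42 after), and made up most of the sum there. miR-451a, miR-486a-5p and miR-223-3p were lower without normalization (-2.66, -1.80 and -2.52) and at -0.82, -0.0027 and -0.66 after it, and miR-150-5p was detected in MPDC-exosomes only. The part of other cell types in the differences of the members was not tested.

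The position of the members relative to all miRNAs was computed again under 13 other choices of normalization, signal, background correction and probe. No normalization and the settings that shift an array by 1 number, 5 in all, give the same relative positions by construction, and the deposited values equal the quantile-normalized ones. In each of the 14 settings all 7 members lay below the median of those 726 miRNAs, and the median of the members was 1.40 to 2.26 below it. miR-322-5p lay 0.72 to 1.47 above the median in the same settings. The gap between the pair miR-195a-5p and miR-497a-5p and the nearest of the other 5 members was 0.93 to 1.71.

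**Figure D4:**
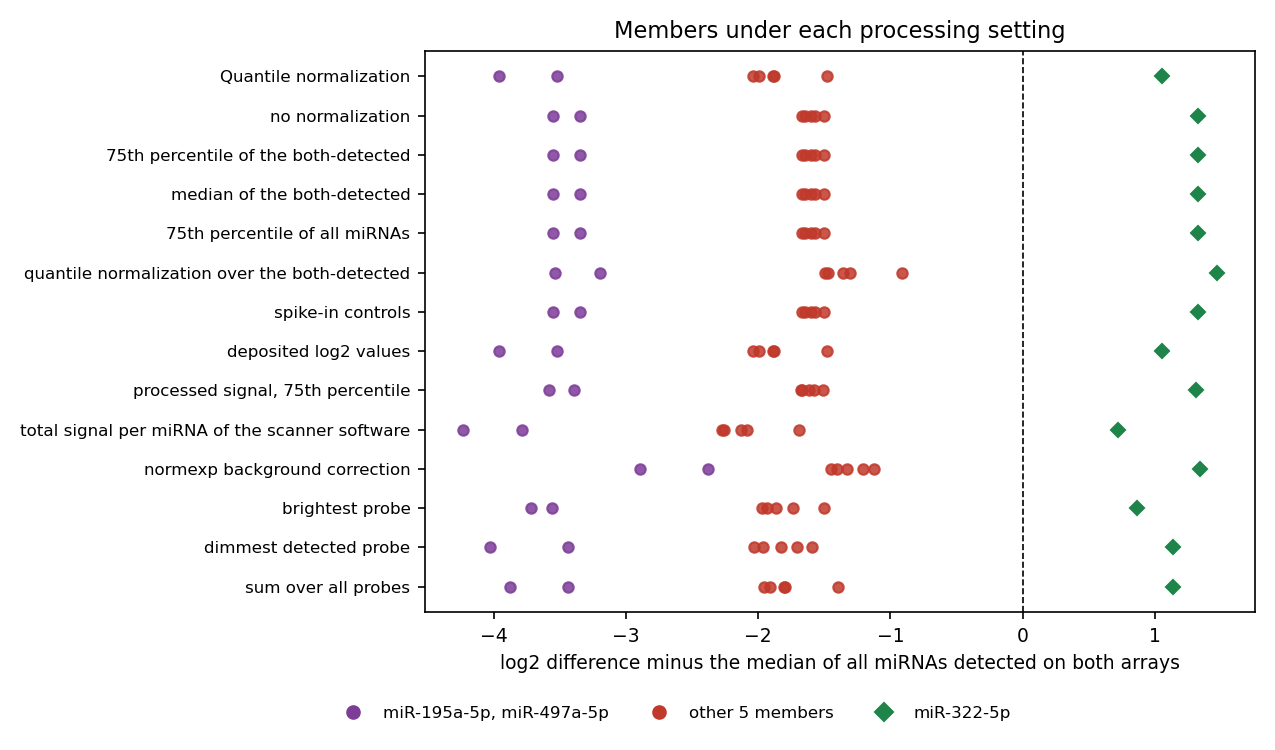
Log2 difference of each member, minus the median of the 726 miRNAs that both arrays detected (dashed line), under the 14 processing settings. Purple circles are miR-195a-5p and miR-497a-5p, red circles the other 5 members and green diamonds miR-322-5p. In every row the purple circles lie left of the red ones and the diamond lies right of the line, with the narrowest gap between purple and red, 0.93, under normexp background correction.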

How the data were processed

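MicroRNAs were measured with 1 one-colour Agilent mouse miRNA array per group, both on the same slide. Scanner files from Agilent Feature Extraction (10.7.1.1 in the file header, 9.1 in the submitters' processing notes) were deposited, and their signals are background-subtracted intensities on a linear scale. Normalized log2 values of each miRNA, made in GeneSpring by a method not given in the sources used here, were deposited by the authors. Their medians were -2.61 (KPC-exosomes) and -0.42 (MPDC-exosomes). Samples were grouped by their labels.

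Total probe signals above 3 errors were summed per miRNA, other miRNAs were set to 0.1, and the log2 values of 1881 miRNAs and 21 control features were quantile normalized, which removes any difference in total amount and moves dim and bright signals by unequal steps. Relative errors of the 2 signals were added in quadrature to give the scanner error of a log2 difference. A miRNA detected on 1 array was set against the higher of the lowest detected signal and its own signal on the other, which is not its own detection limit. The normalization code was run on simulated data, in which both arrays were copies of the MPDC-exosome array with added noise and 4-fold changes in either direction. That simulation held no general shift between the arrays, so it cannot show how the normalization acts on the shift seen here. The members, and the lists of relatives, insulin miRNAs and markers, were chosen with earlier results of these data known. The text names the members, their opposite arms, miRNAs with their seeds, those lists and the 5 nearest miRNAs. Python 3.11.15 with numpy 2.4.6 and pandas 2.3.3, together with limma 3.58.1 in R 4.3.3, did the computing.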

Additional observations from a re-analysis of the deposited data

How the results depend on the processing

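Of the 91 differences of the 7 members under 13 alternatives, none changed sign, 55 stayed within the scanner error of the quantile-normalized value and 36 moved further. The median difference of the members was -1.47 after quantile normalization, -3.02 without normalization, -3.04 with scaling to the spike-in controls, -1.20 with scaling to the 75th percentile of all miRNAs, and -1.22 after normexp background correction with an offset of 50. The number of members at least 2-fold lower was 6, and 6 or 7 under each alternative. The share of all miRNAs detected on both arrays that were at least 2-fold lower was 21.3%. It ran from 14.3% after normexp background correction to 59.9% with scaling to the spike-in controls. After quantile normalization 2 members were at least 4-fold lower and all 7 were lower by more than 2 scanner errors. The shares of all miRNAs past these last 2 limits were not counted, so these 2 counts do not set the members apart. The separation of miR-195a-5p and miR-497a-5p from the other 5 members, a comparison chosen after seeing the data, was 1.49, and 0.93 after normexp background correction, whose offset brings dim signals closer together. No paired analysis was possible because each group had 1 array, and for the same reason no replicate could be left out. All member probes were detected on both arrays, so a sum over all probes gave the main values of the members again. The deposited values did the same. Both settings are among the 13 alternatives, and their member values stayed by construction. The differences of many miRNAs that are not members, miR-15b-3p, miR-29b-3p and miR-33-5p among them, were negative without normalization and positive after quantile normalization. The same step moved the median of the 726 miRNAs from -1.37 to 0.53. miR-322-5p went from -0.045 ± 0.15, a difference smaller than its scanner error, to 1.58.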
